A study of Mus musculus with 8 samples.

Results

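The 8 RNA sequencing libraries of this study fall into 2 sets by the number in their titles, and the differences between those sets are described here. The 4 libraries numbered 1 and 2 (wild type 1 and 2, knockout 1 and 2; the 1-2 libraries) were set against the 4 numbered 3 and 4 (wild type 3 and 4, knockout 3 and 4; the 3-4 libraries), so each set holds 2 libraries of each genotype out of 8 in all. The split was chosen from the expression values of these same libraries, in which the numbers 1 and 2 stood apart from 3 and 4. Differences between the sets are therefore given as a description, with levels and standard errors. A model fit was used only to sort genes into called and not called, and a call is not evidence of a difference.

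All cells were mouse CD4+ T cells of strain C57BL/6J. Cells of 2 genotypes, wild type and Ikzf4-/- (Eos KO), were taken naive, activated with plate-bound antibodies to CD3 and CD28 and cultured under Th1-polarizing conditions, and total RNA was taken after 72 h. Ikzf4 encodes Eos, an Ikaros-family regulator that binds DNA through zinc fingers. The labels name no Cre or promoter for the knockout. They do not say whether a number stands for an animal, a litter or a culture day, so the spread between libraries may be partly technical. Same-numbered wild-type and knockout libraries also deviated together from their genotype means, so standard errors over 8 libraries may be too small for 4 numbers.

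Activated T cells divide quickly, take up large amounts of glucose and secrete cytokines, IL-2 first among them. Several of the programmes they use have well-known transcription factors: p53 after DNA damage and other stress, HIF1 when oxygen is low or growth signalling is strong, NF-kB downstream of the antigen receptor and CD28, and interferon regulatory factors after type I interferon. In bulk RNA, fewer cells of a kind and less RNA per cell cannot be told apart.

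The label of the cells matched their marker genes in both sets. Cd4 ran from 438 to 695 CPM (read counts scaled to one library total with TMM factors) over the 8 libraries, with log2 difference 0.22 ± 0.12 (1-2 minus 3-4, ± SE, n = 4 libraries a set). Tbx21, the Th1 master regulator T-bet, had a difference of 0.28 ± 0.17, and Ifng, the Th1 cytokine interferon gamma, one of -0.51 ± 0.21. Neither was called. Ikzf4 held 1386 to 1814 counts in wild-type and 75 to 139 in knockout libraries.

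A total of 15740 genes were tested with edgeR's quasi-likelihood fit with genotype and set as terms. Used as a sorting rule at an adjusted p of 0.05, that fit called 2243 genes higher in the 1-2 libraries (14.3% of genes tested) and 2126 lower (13.5%). Of these, 649 higher and 823 lower genes differed at least 2-fold. In 2279 genes every 1-2 library lay above every 3-4 library (14.5%), and in 2070 every 1-2 library lay below (13.2%). Each list count given here is to be read against these shares, and a share near them is not a result about the list. The median log2 difference of all genes was 0.0019. The first principal component of log2 CPM held 49.9% of the variance, and on it the 1-2 libraries scored from 15.9 to 64.6 and the 3-4 libraries from -61.0 to -17.9. The split itself rested on this separation.

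**Figure D1:**
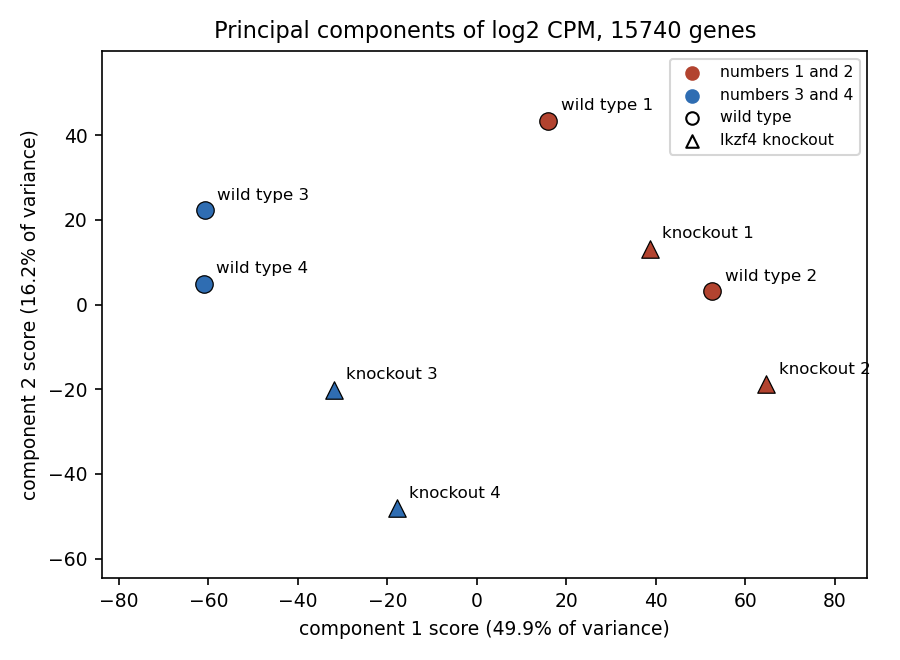
Scores of the 8 libraries on the first and second principal components of log2 CPM (unitless), with the variance share on each axis; colour marks the number set and shape the genotype. All 1-2 libraries lie to the right of 0 on component 1 and all 3-4 libraries to the left, while within each set the knockout libraries lie lower on component 2 than the wild-type library of the same number.

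The sets differed in library properties too. The 1-2 libraries held 35188755 to 53149322 counts and the 3-4 libraries 25227017 to 31101529, so every 1-2 library was deeper than every 3-4 library. Ribosomal protein genes took 8.94% to 9.46% of counts against 7.62% to 8.23%, and the 10 most abundant genes 4.51% to 4.91% against 5.11% to 5.82%. Of the 20% of genes with the shortest transcripts, 20.8% were called higher and 9.44% lower, and of the 20% with the longest, 6.98% higher and 25% lower. Of the 20% with the lowest GC content 7.08% were called higher and 17.7% lower, and of the 20% with the highest, 19.7% higher and 10.3% lower. With all libraries thinned to the smallest total, 2106 genes were called higher and 2062 lower. The part of length, GC content and RNA quality in the differences below was not tested.

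Promoters are shown first for 3 gene groups described at length: p53 targets, genes of glycolysis and hypoxia, and genes of the type I interferon response. For each group they belong to the called members with the largest differences that had the motif of the group's known factor in a window. A window runs from 250 bases before to 50 after a start (RefSeq, GRCm38.p6). Where a gene had several starts, the first window with the motif is shown, which need not be that of its main start. Capitals mark the motif, on either strand. For p53 the motif is the p53 response element decamer, in Cdkn1a (chr17:29090729-29091028, plus strand) and Bax (chr7:45466849-45467148, minus strand).
Cdkn1a: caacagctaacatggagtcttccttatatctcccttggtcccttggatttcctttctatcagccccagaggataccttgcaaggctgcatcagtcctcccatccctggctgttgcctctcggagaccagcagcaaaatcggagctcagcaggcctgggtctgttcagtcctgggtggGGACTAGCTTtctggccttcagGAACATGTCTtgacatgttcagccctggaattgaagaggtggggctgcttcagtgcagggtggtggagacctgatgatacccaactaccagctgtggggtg
Bax: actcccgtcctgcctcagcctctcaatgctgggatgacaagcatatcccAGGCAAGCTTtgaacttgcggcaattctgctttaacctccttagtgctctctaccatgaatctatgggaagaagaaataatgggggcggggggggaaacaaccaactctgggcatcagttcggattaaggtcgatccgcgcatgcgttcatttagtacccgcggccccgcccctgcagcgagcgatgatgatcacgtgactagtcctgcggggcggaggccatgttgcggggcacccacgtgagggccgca
For HIF1 the motif is ACGTG, in Bnip3 (chr7:138909457-138909756, minus strand), where the 2 matches overlap on opposite strands, and P4ha2 (chr11:54100674-54100973, plus strand).
Bnip3: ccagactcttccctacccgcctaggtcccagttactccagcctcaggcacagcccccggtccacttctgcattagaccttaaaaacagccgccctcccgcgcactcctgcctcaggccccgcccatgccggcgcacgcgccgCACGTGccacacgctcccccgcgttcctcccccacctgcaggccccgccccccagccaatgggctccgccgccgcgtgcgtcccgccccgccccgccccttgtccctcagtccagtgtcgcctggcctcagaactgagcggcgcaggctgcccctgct
P4ha2: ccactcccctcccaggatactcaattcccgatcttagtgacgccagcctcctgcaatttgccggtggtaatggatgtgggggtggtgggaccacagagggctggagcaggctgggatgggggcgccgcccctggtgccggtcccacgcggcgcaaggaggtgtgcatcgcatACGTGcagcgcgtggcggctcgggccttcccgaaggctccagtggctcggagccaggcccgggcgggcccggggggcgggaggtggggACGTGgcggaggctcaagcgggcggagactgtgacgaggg
For the interferon-stimulated response element the motif is GAAANNGAAA, in Rsad2 (chr12:26456403-26456702, minus strand) and Oas1a (chr5:120907476-120907775, minus strand), where 2 matches overlap.
Rsad2: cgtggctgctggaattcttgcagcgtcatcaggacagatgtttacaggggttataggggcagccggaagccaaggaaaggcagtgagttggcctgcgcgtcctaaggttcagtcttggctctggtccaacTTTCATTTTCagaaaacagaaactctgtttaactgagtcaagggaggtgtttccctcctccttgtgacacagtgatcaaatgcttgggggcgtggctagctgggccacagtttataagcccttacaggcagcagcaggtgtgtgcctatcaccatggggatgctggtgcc
Oas1a: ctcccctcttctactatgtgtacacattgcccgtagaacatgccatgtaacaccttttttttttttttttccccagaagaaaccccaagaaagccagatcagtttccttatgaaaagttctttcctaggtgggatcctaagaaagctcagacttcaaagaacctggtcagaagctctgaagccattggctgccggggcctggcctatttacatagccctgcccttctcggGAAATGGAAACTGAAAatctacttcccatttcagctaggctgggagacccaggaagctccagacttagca
A promoter was given for 10597 of the genes tested. A gene with several starts counted as a match when any of its windows held the motif. The p53 decamer was found in 10 of 17 p53 targets (58.8%) and in 8.05% of all those genes. ACGTG was found in 24 of 32 glycolysis and hypoxia genes (75%) against 29.1% of all, and GAAANNGAAA in 15 of 24 interferon genes (62.5%) against 3.81% of all. Such genes are often placed on these lists because the factor is known to bind them, and a match is only a run of letters. Among genes called higher in the 1-2 libraries the shares were 8.66%, 30.1% and 4.79% in the same order, and among those called lower 7.44%, 32.6% and 3.83%.

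Targets of p53 were higher in the 1-2 libraries. Of 21 list members tested, 18 were called higher and none lower, and in the same 18 genes the sets did not overlap. Their median log2 difference was 0.97, against 0.0019 for all genes. It was 1.01 within wild type and 0.89 within the knockout, and 0.92 for number 1 and 1.11 for number 2 against the 3-4 libraries. Summed over the list, p53 targets reached 3067 to 3991 CPM in the 1-2 libraries and 1513 to 2068 CPM in the 3-4 libraries.

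Phlda3, a p53-induced inhibitor of AKT signalling (chromosome 1, 135766119 to 135769136, GRCm38, GENCODE M21), stood at 126 and 153 CPM in wild type 1 and 2 and 133 and 207 CPM in knockout 1 and 2, against 17.9 and 24.5 CPM in wild type 3 and 4 and 31.1 and 49.8 CPM in knockout 3 and 4. The sets were far apart in both genotypes, with a log2 difference of 2.39 ± 0.23. Bbc3, which encodes the pro-apoptotic BH3-only protein PUMA, was measured at 54.4, 104, 14.5 and 15.1 CPM in wild type 1 to 4 and 63.8, 143, 23.5 and 27.3 CPM in knockout 1 to 4, a difference of 2.22 ± 0.28. Within the 1-2 libraries the number 2 pair was the higher one for Bbc3. Cdkn1a, the cell cycle inhibitor p21 with a promoter window shown above, was at 628 and 629 CPM in wild type 1 and 2 and 576 and 643 CPM in knockout 1 and 2. It was at 202 and 382 CPM in wild type 3 and 4 and 217 and 295 CPM in knockout 3 and 4. The sets did not overlap there, but wild type 4 and knockout 4 lay above their number 3 counterparts, and the difference was 1.18 ± 0.18.

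Bax, the pore-forming apoptosis effector, ran from 326 to 418 CPM in the 1-2 and from 153 to 189 CPM in the 3-4 libraries, a difference of 1.12 ± 0.11. The death receptor genes pointed the same way. Tnfrsf10b, the receptor for TRAIL, differed by 1.42 ± 0.15, Fas by 1.06 ± 0.11, and Eda2r, a TNF receptor family member of low level here (from 3.41 to 4.45 CPM in the 1-2 and from 0.435 to 1.44 CPM in the 3-4 libraries), by 2.23 ± 0.30. Mdm2, which encodes the ubiquitin ligase that degrades p53, had the smallest called difference, 0.42 ± 0.06, from 178 ± 5.15 CPM in the 1-2 and 133 ± 0.347 CPM in the 3-4 libraries (mean ± SD, n = 4). Trp53inp1 was uneven, at 101, 268, 78.3 and 67.2 CPM in wild type 1 to 4 and 86.9, 157, 68.5 and 66.7 CPM in knockout 1 to 4; the number 2 pair held most of its difference of 1.1 ± 0.30. The 3 members that were not called were Pmaip1 (0.31 ± 0.14), Sesn1 (0.32 ± 0.19) and Gadd45a (0.48 ± 0.23), all with values above 0. Other genes of apoptosis were mixed: of 24 in that list 9 were called higher and 3 lower, and 4 of the 9 (Bax, Bbc3, Fas and Tnfrsf10b) are p53 targets as well. Bcl2l1, encoding the survival protein BCL-XL, was higher by 1.03 ± 0.13, and Bcl2 lower, at -0.50 ± 0.10.

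Genes of glycolysis and hypoxia were lower in the 1-2 libraries. Of 36 tested, 26 were called lower, 1 higher and 9 neither way, and 24 lay lower with no overlap. The median log2 difference was -0.76, with -0.84 in wild type and -0.64 in the knockout. It was larger in size for number 2 (-1.02) than for number 1 (-0.51). The summed level of the list was 17170 to 26410 CPM in the 1-2 libraries and 30210 to 40490 CPM in the 3-4 libraries.

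Slc2a3, the glucose transporter GLUT3 (chromosome 6, 122727809 to 122801640), was at 55.8 and 29.9 CPM in wild type 1 and 2 and 49.5 and 29 CPM in knockout 1 and 2, against 310.2 and 808 CPM in wild type 3 and 4 and 143 and 268 CPM in knockout 3 and 4. It had the largest difference of the list, -3.05 ± 0.45, and within the 3-4 libraries wild type 4 stood highest. Bnip3, a mitophagy receptor induced through HIF1, was at 50.9, 27.4, 226 and 291 CPM in wild type 1 to 4 and 43.1, 18.7, 170.3 and 162 CPM in knockout 1 to 4, a difference of -2.58 ± 0.28. Number 2 was the lower pair of the 1-2 libraries. P4ha2, a collagen prolyl hydroxylase, ranged from 3.88 to 9.65 CPM in the 1-2 and from 29.3 to 58.8 CPM in the 3-4 libraries and differed by -2.55 ± 0.34. Egln3, an oxygen-sensing hydroxylase that marks HIF proteins for degradation and is itself a HIF target, differed by -2.03 ± 0.25. Pdk1, the kinase that inhibits pyruvate dehydrogenase, differed by -1.09 ± 0.17.

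Enzymes of glycolysis differed by unequal amounts. Aldoc, an aldolase gene of low level here, ran from 4.65 to 11.5 CPM in the 1-2 and from 21.6 to 53 CPM in the 3-4 libraries, a difference of -2.23 ± 0.37. Gapdh differed by -0.63 ± 0.18, Pkm by -0.54 ± 0.17 and Ldha by -0.36 ± 0.11, all called lower. Pkm did overlap between the sets, with wild type 1 above knockout 4. Hif1a, the oxygen-regulated subunit of HIF1, was lower as well, at 745 and 541 CPM in wild type 1 and 2 and 688 and 382 CPM in knockout 1 and 2, against 1091 and 1048 CPM in wild type 3 and 4 and 899 and 867 CPM in knockout 3 and 4, a difference of -0.73 ± 0.17. Slc2a1, the transporter GLUT1, overlapped between the sets and was not called (-0.60 ± 0.30). Ddit4, a hypoxia- and stress-induced inhibitor of mTORC1, went against the list: it ran from 219.7 to 275 CPM in the 1-2 and from 90.2 to 159.7 CPM in the 3-4 libraries, a difference of 1.08 ± 0.13. Ddit4 is also known as a p53 target, though it was not on that list.

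Nuclear genes of the respiratory chain differed in the other direction and by less. Of 36, 17 were called higher and none lower, with a median of 0.22. The count depended on the libraries: it was 9 without wild type 3, 10 without wild type 4, knockout 3 or knockout 4, and 11 without knockout 1 or knockout 2. It was 10 without number 1, 4 without number 3, 5 without number 4, 10 with the replicate block at the estimated correlation and 4 with same-numbered libraries summed. Ndufa2, a complex I subunit, had the largest difference, 0.79 ± 0.08, and Cox8a of complex IV differed by 0.57 ± 0.06. These are short transcripts, and short transcripts as a group were more often called higher. Mitochondrially encoded genes were the opposite, with 0 higher and 8 lower of 13. Part of that count rests on genes at very low levels, such as mt-Co2 (from 0.941 to 1.69 CPM in the 1-2 and from 5.03 to 5.69 CPM in the 3-4 libraries) and mt-Atp8 (from 0.25 to 0.451 CPM in the 1-2 and from 0.815 to 1.74 CPM in the 3-4 libraries), where near-identical nuclear copies make the counting uncertain. The abundant mt-Nd1 ran from 1704 to 2414 CPM in the 1-2 and from 2306 to 2696 CPM in the 3-4 libraries and differed by -0.35 ± 0.11.

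**Figure D2:**
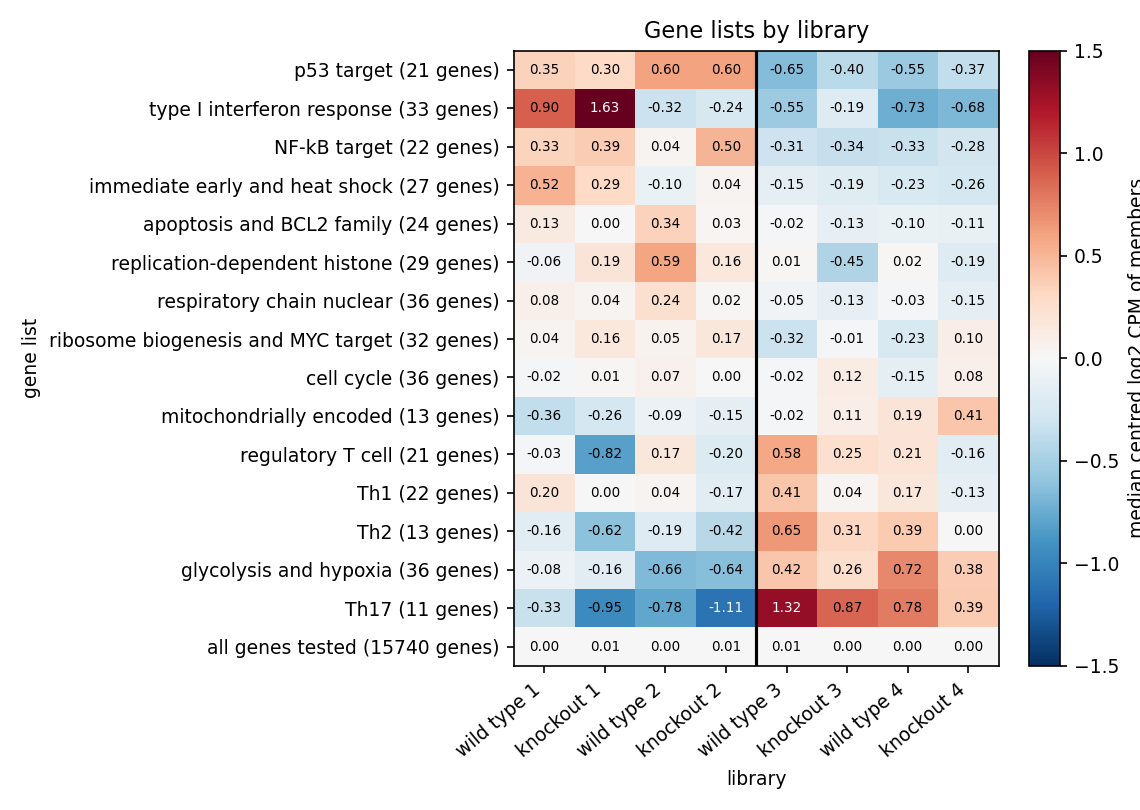
Median centred log2 CPM of the members of 15 gene lists and of all genes tested (rows) in each library (columns, ordered by number; the black line parts the 1-2 from the 3-4 libraries). Red is above and blue below the mean of the 8 libraries; p53 targets are above in all 1-2 libraries and below in all 3-4 libraries, and type I interferon genes are above 0 in wild type 1 and knockout 1 alone.

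Activation genes were next. Il2, the T cell growth factor gene (chromosome 3, 37120523 to 37125959), had levels of 104, 66.7, 5.12 and 9.49 CPM in wild type 1 to 4 and 78.5, 79, 9.82 and 15.5 CPM in knockout 1 to 4. No 1-2 library came near a 3-4 library, and the difference was 3.09 ± 0.29, or 8.49-fold. Penk, which encodes proenkephalin, differed by 2.71 ± 0.18 with 163 ± 35.3 CPM in the 1-2 and 25.1 ± 7.37 CPM in the 3-4 libraries (mean ± SD, n = 4). Of 22 NF-kB targets, 12 were called higher and 1 lower (Ltb, -0.53 ± 0.12), with a median of 0.74. Tnf was at 130.2 and 97.4 CPM in wild type 1 and 2 and 77.3 and 74.5 CPM in knockout 1 and 2, against 39.9 and 31.7 CPM in wild type 3 and 4 and 31.8 and 23.9 CPM in knockout 3 and 4, a difference of 1.56 ± 0.14. Cd83, an activation marker of lymphocytes and dendritic cells, was at 45.2, 34, 9.26 and 18 CPM in wild type 1 to 4. In knockout 1 to 4 it was at 81.2, 75.6, 20.1 and 20.5 CPM. For this gene the knockout libraries were the higher ones within each set.

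Nfkbia, the feedback inhibitor IkB alpha, was higher by 1.08 ± 0.12 and Relb, an NF-kB subunit, by 0.81 ± 0.09. Nfkb1 had a difference of -0.07 ± 0.09 and was not called. Ccl22, a chemokine gene, was low and uneven (from 0.903 to 8.75 CPM in the 1-2 and from 0.158 to 0.717 CPM in the 3-4 libraries) with a difference of 2.71 ± 0.44. Of 27 immediate early and heat shock genes, 11 were called higher and 3 lower. Egr1, a transcription factor gene induced within minutes of antigen receptor signalling, ran from 116 to 172 CPM in the 1-2 and from 58.9 to 80.5 CPM in the 3-4 libraries and differed by 1.11 ± 0.11. Egr2 differed by 1.0 ± 0.17 and Nr4a1 by 0.67 ± 0.19. Fos (0.49 ± 0.39) and Jun (0.24 ± 0.30) were not called, and the 3 lower members were the chaperone genes Hsph1, Hspa8 and Hsp90aa1.

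Genes of antigen receptor signalling went both ways, with 8 called higher and 7 lower of 27. Lat, the membrane adaptor that links the receptor to its downstream enzymes, was higher by 0.53 ± 0.14 and Cd3d, a chain of the receptor complex, by 0.39 ± 0.12. Malt1, a protease on the path to NF-kB, was lower by -0.74 ± 0.08, the calcium-regulated factor gene Nfatc2 by -0.66 ± 0.16 and Cd28, the co-stimulatory receptor, by -0.45 ± 0.10.

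Not all activation cytokines went with Il2. Of 25 on that list, 7 were called higher and 5 lower, with a median of -0.44. Besides Il2, Penk and Tnf, the higher ones included Csf2 (1.17 ± 0.26), the gene for GM-CSF, and Tnfsf11 (1.71 ± 0.45), the gene for RANKL. Il10 was at 60.6 and 54.6 CPM in wild type 1 and 2 and 7.5 and 8.6 CPM in knockout 1 and 2, against 189 and 108 CPM in wild type 3 and 4 and 55.1 and 18.8 CPM in knockout 3 and 4, called lower by -1.76 ± 0.34 though the genotypes' ranges made the sets overlap. Of 22 genes of IL-2 and STAT5 signalling 5 were higher, Il2 among them, and 5 lower. Il2ra, the alpha chain of the IL-2 receptor, was lower, at -0.49 ± 0.13, and Myc was not called (0.09 ± 0.15).

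Genes of the type I interferon response were higher in number 1, and by less in number 2. Of 33 tested, 13 were called higher and none lower, with a median log2 difference of 1.22, but only 5 of the 33 had no overlap. Against the 3-4 libraries the median was 1.5 for number 1 and 0.18 for number 2. The summed level was 703 to 1735 CPM in the 1-2 libraries and 616 to 690.1 CPM in the 3-4 libraries. Without number 1, 6 members were called higher, and without number 2, 30.

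Rsad2, the antiviral enzyme viperin, was at 5.82, 0.479, 0.554 and 0.0791 CPM in wild type 1 to 4 and 11.9, 1.02, 0.546 and 0.264 CPM in knockout 1 to 4. Wild type 1 and knockout 1 stood above all other libraries, and wild type 2 lay below wild type 3. Isg15, a ubiquitin-like protein conjugated in the interferon response, had the same shape, at 53 and 6.29 CPM in wild type 1 and 2 and 93.9 and 11.2 CPM in knockout 1 and 2, against 11.2 and 9.57 CPM in wild type 3 and 4 and 15.6 and 8.68 CPM in knockout 3 and 4, and was not called (1.82 ± 0.73). Oas1a, which senses double-stranded RNA, was the more even one, with differences of 3.26 for number 1 and 2.37 for number 2. Ifit1 was higher by 2.41 ± 0.59 with no overlap, but it was uneven. Knockout 1 held 36.9 CPM and the other 1-2 libraries 5.13 to 21 CPM, against 2.45 to 3.59 CPM in the 3-4 libraries. Irf9, an interferon regulatory factor gene, ranged from 50.4 to 82.8 CPM in the 1-2 and from 41.9 to 48.8 CPM in the 3-4 libraries, a difference of 0.58 ± 0.14. With limma-voom, with or without the replicate number as a block, 6 of the 33 were called higher.

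Genes of the interferon gamma response, another list, were called higher in 6 and lower in 3 of 28, where 14.3% and 13.5% of all genes were called. The 6 higher ones were Irf1 and 5 genes of peptide processing for MHC class I: the immunoproteasome subunits Psmb8, Psmb9 and Psmb10 and the peptide transporter genes Tap1 and Tap2. Psmb9 was at 219.9, 233, 162 and 163 CPM in wild type 1 to 4 and 273, 262, 163 and 167 CPM in knockout 1 to 4, and the sets did not overlap. The 5 differed by 0.44 to 0.61, in number 2 as well as in number 1. The 3 lower ones were the GTPase genes Gbp7 (-1.04 ± 0.20), Gbp4 (-0.46 ± 0.14) and Tgtp1 (-0.33 ± 0.10).

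**Figure D3:**
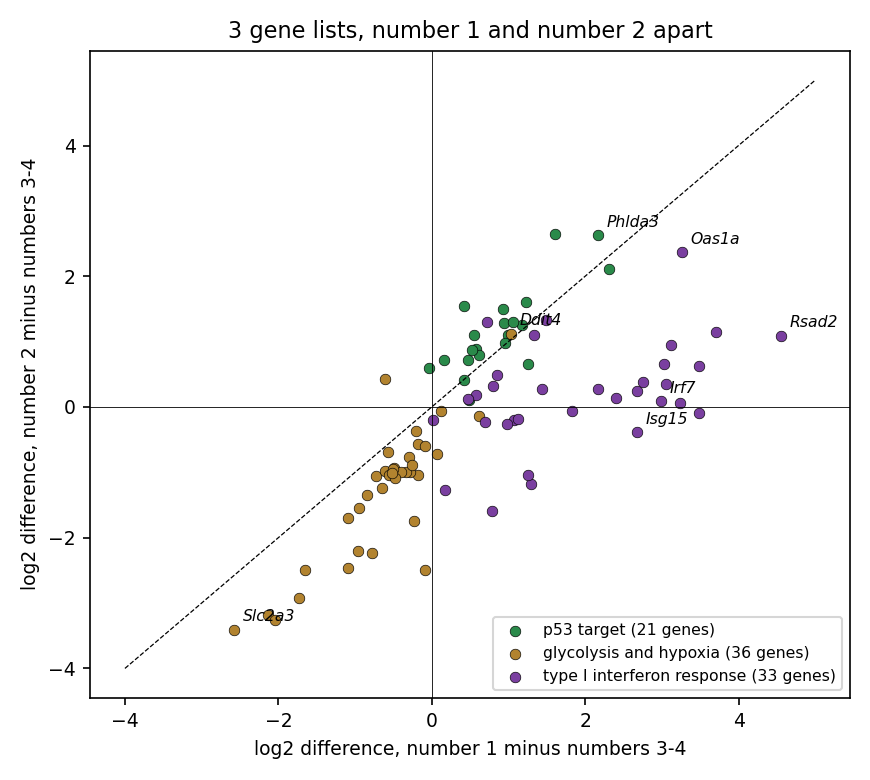
Log2 difference (mean log2 CPM) from the 3-4 libraries for number 1 (x axis) and number 2 (y axis), one point per member of 3 gene lists; the dashed line marks equal differences. The p53 and glycolysis points lie along the line, with number 2 often the larger in size, and many interferon points lie far to the right near 0 on the y axis, with a median of 1.5 on x and 0.18 on y.

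Lineage genes of T helper cells differed by programme. Of 11 Th17 genes none were called higher and 6 lower, with a median of -1.63, the lowest of any T helper list. Il17f, which encodes the cytokine IL-17F, was at 0.523 and 1.92 CPM in wild type 1 and 2 and 0.2 and 1.45 CPM in knockout 1 and 2, against 13.7 and 10.7 CPM in wild type 3 and 4 and 17.1 and 10.8 CPM in knockout 3 and 4, a difference of -3.67 ± 0.54. Il23r, a subunit of the IL-23 receptor, was lower by -2.39 ± 0.42. Neither gene overlapped between the sets, so the 3-4 libraries held the higher level in both genotypes, while both levels were low under these Th1 conditions.

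Of 22 Th1 genes 3 were called higher and 6 lower. Cxcr3, a chemokine receptor of Th1 cells, was at 5.96, 2.85, 20.9 and 15.4 CPM in wild type 1 to 4 and 3.31, 4.29, 25.2 and 12.9 CPM in knockout 1 to 4, a difference of -2.18 ± 0.29. Il12rb2, a chain of the IL-12 receptor, was lower by -1.22 ± 0.34 and Hlx, a homeobox gene that acts with T-bet, by -2.05 ± 0.32. The higher Th1 genes were Tnf, Irf1 (0.39 ± 0.07) and Xcl1 (1.77 ± 0.36), the chemokine lymphotactin. The T-bet gene and Ifng, given above, were in neither direction. Of 13 Th2 genes 7 were lower and none higher, with Maf at -1.67 ± 0.37 and Il4ra at -0.73 ± 0.15. Gata3, the Th2 regulator, was highest in the number 2 pair, at 6.19 and 25.6 CPM in wild type 1 and 2 and 8.75 and 20.8 CPM in knockout 1 and 2, against 6.65 and 7.04 CPM in wild type 3 and 4 and 6 and 7.29 CPM in knockout 3 and 4, and was not called.

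Of 21 genes of regulatory T cells 9 were called lower and 1 higher (Tnfrsf4, 0.54 ± 0.08). Ctla4, the inhibitory receptor that competes with CD28, was at 196, 206, 532 and 626 CPM in wild type 1 to 4 and 106, 69.2, 295 and 303 CPM in knockout 1 to 4, and the sets did not overlap although the genotypes differed within each. Its difference was -1.65 ± 0.13. Tigit, another inhibitory receptor, differed by -1.73 ± 0.20, and Lrrc32, which holds latent TGF-beta at the cell surface, by -1.96 ± 0.17. Foxp3 itself was low and uneven, at 1.77 and 7.56 CPM in wild type 1 and 2 and 1.2 and 1.58 CPM in knockout 1 and 2, against 12.6 and 5.93 CPM in wild type 3 and 4 and 9.98 and 3.62 CPM in knockout 3 and 4, and was not called. Ikzf4 is also on this list: its difference was -0.54 ± 0.15. Co-inhibitory receptors as a group were split, 6 higher and 5 lower of 17, with Cd160 (1.75 ± 0.28) and Cd96 (1.64 ± 0.23) higher.

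Cytotoxic genes were split too, 5 higher and 5 lower of 22. Prf1, perforin, was at 66.5, 27.2, 223 and 134 CPM in wild type 1 to 4 and 11.1, 8.71, 53 and 22.3 CPM in knockout 1 to 4. Both genotypes had less in their 1-2 libraries, but wild type 1 lay above the knockout 3-4 libraries, so the sets overlapped, and the difference was -1.93 ± 0.34. Gzmb, granzyme B, showed the same order within each genotype and differed by -1.06 ± 0.33. Eomes, a T-box gene related to Tbx21, was higher by 1.72 ± 0.32. Prdm1, which encodes the effector regulator BLIMP1, was lower by -1.58 ± 0.22.

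Homing genes included Ccr7, the lymph node homing receptor, which was higher at 674 and 784 CPM in wild type 1 and 2 and 892 and 831 CPM in knockout 1 and 2, against 222 and 440.5 CPM in wild type 3 and 4 and 221 and 343 CPM in knockout 3 and 4, a difference of 1.37 ± 0.23. Of 24 homing genes 3 were higher and 8 lower. The count of lower genes was 5 without wild type 3, wild type 4 or knockout 4, 2 without number 3, 4 without number 4 and 1 with same-numbered libraries summed. The lower ones included the receptors for inflammatory chemokines Ccr1, Ccr2, Ccr3, Ccr4 and Cxcr3 and, for homeostatic trafficking, Cxcr4. Among naive and central memory genes, 7 were higher and 4 lower of 18. Klf3 ran from 14.4 to 31.2 CPM in the 1-2 and from 3.05 to 7.06 CPM in the 3-4 libraries (difference 2.12 ± 0.16), and Tcf7, which encodes the memory regulator TCF1, differed by 0.68 ± 0.12. Il7r, a chain of the IL-7 receptor, was lower (-0.76 ± 0.12).

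**Figure D4:**
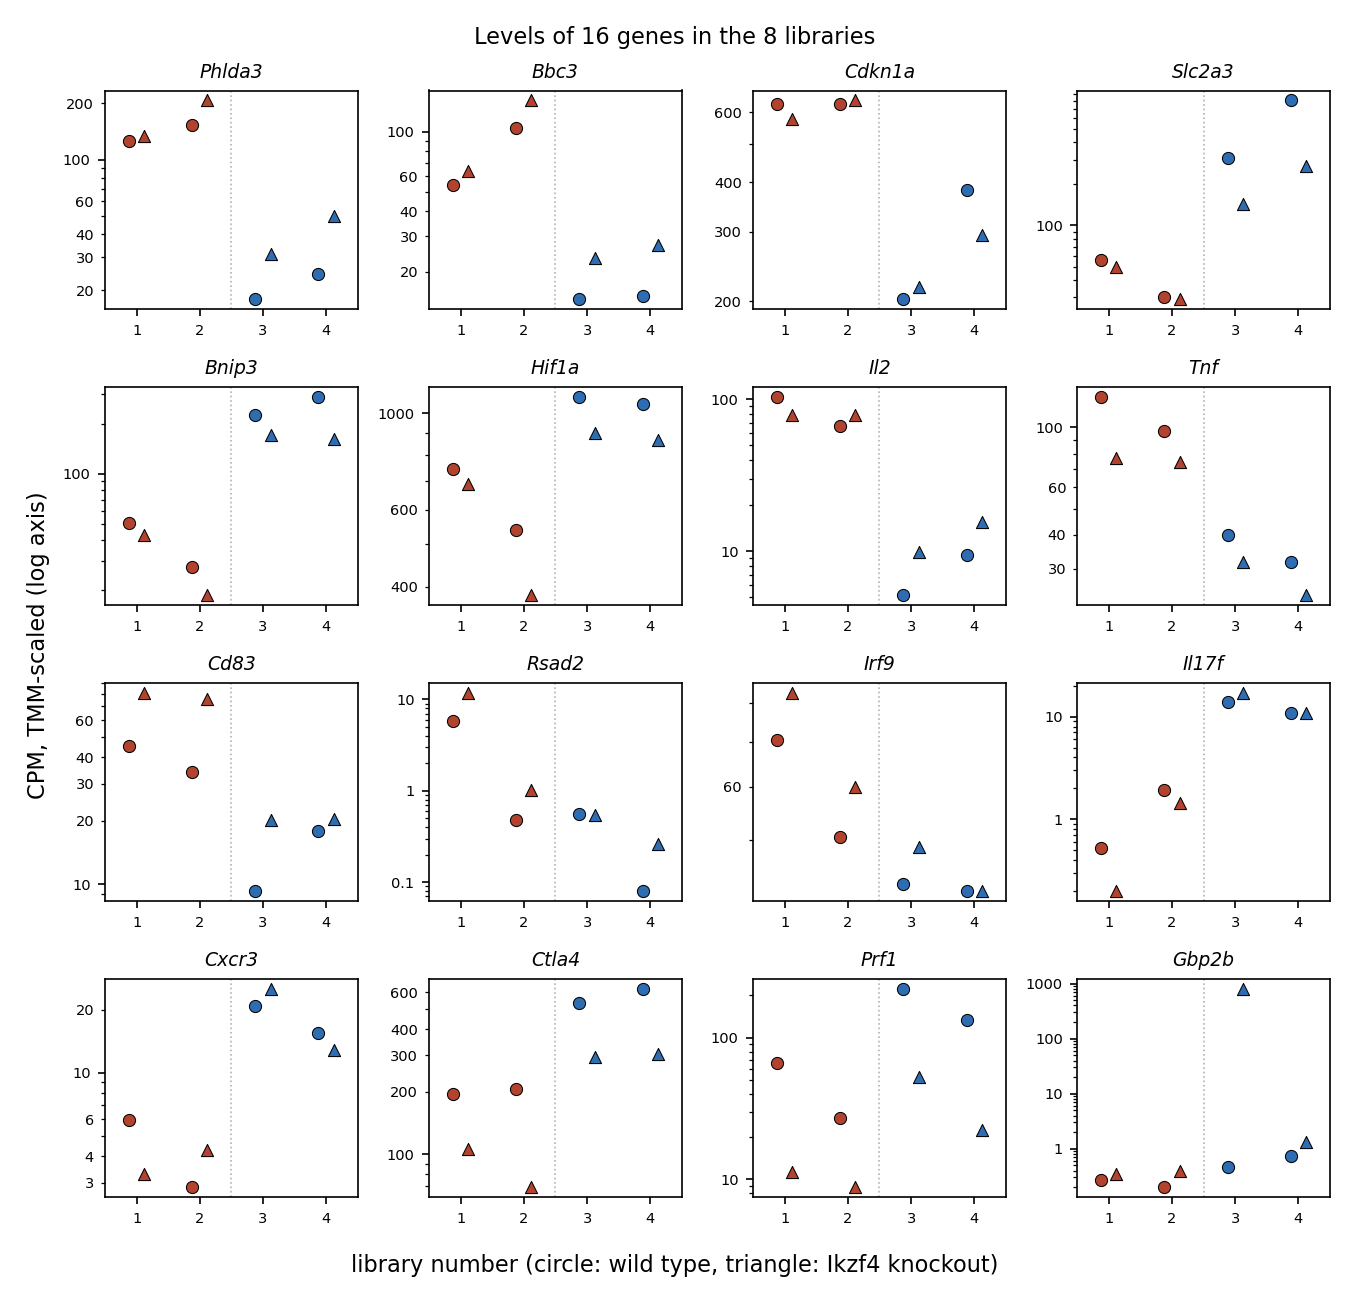
TMM-scaled CPM (log axis, each panel with its own range) of 16 genes against library number, circles for wild type and triangles for knockout; each point is 1 library. Phlda3, Bbc3, Cdkn1a, Il2, Tnf and Cd83 lie higher at numbers 1 and 2 in both genotypes, Slc2a3, Bnip3, Hif1a, Il17f, Cxcr3 and Ctla4 lower, Rsad2 is high at number 1, and Gbp2b is high in knockout 3 alone.

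Of 36 cell cycle genes 5 were called higher and 4 lower, where 14.3% and 13.5% of all genes were called, and their median was -0.0024. Mki67, which encodes the proliferation antigen Ki-67, was lower by -0.60 ± 0.07 with 443 ± 17.3 CPM in the 1-2 and 673 ± 80.5 CPM in the 3-4 libraries (mean ± SD, n = 4). Its transcript is long, and long transcripts as a group were more often called lower. Tyms (0.47 ± 0.10) and Pcna (0.39 ± 0.06), genes of DNA replication, were higher. The nuclear RNA Malat1 was lower, at from 252 to 355 CPM in the 1-2 and from 502 to 698 CPM in the 3-4 libraries, a difference of -0.92 ± 0.13.

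Among the called genes with the largest differences and no overlap, the higher ones included Robo3 (from 3.59 to 14 CPM in the 1-2 and from 0.0791 to 0.83 CPM in the 3-4 libraries), a guidance receptor gene, Spib (from 0.887 to 15.4 CPM in the 1-2 and from 0.13 to 0.642 CPM in the 3-4 libraries), an ETS factor gene, and Cd70 (from 5.71 to 24.1 CPM in the 1-2 and from 0.391 to 0.83 CPM in the 3-4 libraries), the ligand of CD27. Their differences were 4.19 ± 0.48, 4.18 ± 0.62 and 3.86 ± 0.43. Trat1, an adaptor of the T cell receptor complex, differed by 3.12 ± 0.45, and Ckmt1, mitochondrial creatine kinase, by 3.48 ± 0.56. Xist, the RNA of X inactivation, also came out by this rule, but it was set by number 2: wild type 2 and knockout 2 held 504 and 588 CPM, and no other library exceeded 0.570 CPM. Those 2 libraries had between 0 and 3 counts for each of 4 Y-linked genes (Ddx3y, Eif2s3y, Kdm5d and Uty), which held 551 or more in each of the other 6, so number 2 came from female and the rest from male cells in both genotypes. Sex is thus part of the 1-2 set and not of the 3-4 set, and its share in the differences that number 2 carries was not tested. Without number 2, 2333 genes were called higher and 2132 lower.

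The lower genes with the largest differences included Ly6g (chromosome 15, 75155240 to 75159126), a surface antigen best known from neutrophils. It was at 2.91, 0.0846, 61.6 and 78.7 CPM in wild type 1 to 4 and 0.884, 0.0557, 14.8 and 9.14 CPM in knockout 1 to 4, a difference of -5.25 ± 0.78. Other granulocyte genes were at or near 0: S100a9 and Elane had 1 count each over 8 libraries, Mpo 16 and Camp 7, while Cxcr2 was lower with Ly6g, from 573 counts in all. Itga7, the integrin alpha 7 subunit, was at 3.73 and 0.395 CPM in wild type 1 and 2 and 3.91 and 0.539 CPM in knockout 1 and 2, against 51.9 and 101 CPM in wild type 3 and 4 and 29.7 and 33.7 CPM in knockout 3 and 4 and differed by -4.55 ± 0.72. Il13ra1, a chain of the IL-13 receptor, differed by -4.23 ± 0.44, Npr3, the natriuretic peptide clearance receptor, by -4.0 ± 0.51, and Gipr, the receptor of the gut hormone GIP, by -4.32 ± 0.64. Wild type 4 was the highest library for Ly6g, Itga7 and Gipr.

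Gbp2b, an interferon-inducible GTPase gene, met the same rule on 1 library: knockout 3 held 809.9 CPM, and the other 7 libraries 0.197 to 1.32 CPM. Its fitted difference of -8.88 ± 2.61 describes that library and not the set. The strain is given as the labels give it, and whether knockout 3 differs from the other libraries in strain background or source was not tested.

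Markers of other cells differed between the sets in places. NK cell markers were lower, 6 of 12 tested with none higher, summing to 10.3 to 66.7 CPM in the 1-2 libraries and 24.5 to 172 CPM in the 3-4 libraries, with Klrc1 at 11, 4.37, 42.2 and 19.2 CPM in wild type 1 to 4 and 2.22, 1.28, 18.5 and 5.44 CPM in knockout 1 to 4; Gzma is on that list, and the defining genes Klrb1c and Tyrobp had 17 and 39 counts in all. Gamma-delta and NKT markers summed to 23.9 to 89.1 CPM against 8.38 to 57.5 CPM, and Cd8a and Cd8b1 together to 6.98 to 16.2 CPM against 3.32 to 10.7 CPM. Of 7 B cell markers none were called. Mast cell and basophil markers gave 1 lower of 8, with Mcpt8 at 262 counts in wild type 1, 139 in wild type 3 and 6 or fewer elsewhere. Of 6 stromal and endothelial markers 3 were lower, with sums of 19.2 to 24.8 against 28.7 to 56.1 CPM. The part of such cells in the lineage, cytotoxic and homing differences was not tested.

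Genes of antigen presentation did not go one way. Of 11 antigen-presenting and myeloid markers 5 were called higher and 1 lower, with sums of 193 to 259 CPM against 138 to 170.1 CPM. Cd74, the invariant chain, was at 72.3 and 71.3 CPM in wild type 1 and 2 and 107 and 135 CPM in knockout 1 and 2, against 19.1 and 19.3 CPM in wild type 3 and 4 and 25.3 and 40.8 CPM in knockout 3 and 4, a difference of 1.89 ± 0.15, and H2-Eb1, an MHC class II beta chain, was higher by 3.01 ± 0.55. H2-Ab1, the beta chain of the other class II molecule, was lower: 28.7, 3.24, 80.7 and 99.5 CPM in wild type 1 to 4 and 23.6, 3.98, 58.5 and 39.4 CPM in knockout 1 to 4. Its difference was -2.17 ± 0.67, and the number 2 pair was the lowest. H2-Aa, the alpha chain of the same molecule, went the other way. It had 270 and 54 counts in wild type 1 and 2 and 108 and 50 in knockout 1 and 2. Wild type 3 and 4 had 32 and 5 counts, and knockout 3 and 4 had 28 and 10. These counts are not scaled for depth, which was greater in the 1-2 libraries.

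No gene passed the test of a set difference that itself differed between the genotypes. The interaction of genotype and set, which is orthogonal to the difference the split was chosen on, was called in 0 of 15740 genes (0%) by edgeR's quasi-likelihood test with Benjamini-Hochberg adjustment. At an unadjusted p under 0.05 there were 587 genes (3.73%), and the smallest adjusted p was 0.927. DESeq2 called 4: Tnfsf8 and Ptprk (DESeq2 adjusted p = 0.000959 each), Swap70 (0.00104) and Rpl34-ps1 (0.0192). Tnfsf8, which encodes the CD30 ligand, was at 140.5 and 138 CPM in wild type 1 and 2 and 169 and 161 CPM in knockout 1 and 2, against 82.3 and 78.7 CPM in wild type 3 and 4 and 172 and 189.8 CPM in knockout 3 and 4, so the sets were further apart in wild type than in the knockout, with an interaction of -0.92 ± 0.13 on the log2 scale in edgeR (adjusted p = 0.927). Ptprk, a receptor phosphatase gene, measured 21.6, 19, 32.4 and 43 CPM in wild type 1 to 4 and 41.4, 40.2, 25.1 and 29 CPM in knockout 1 to 4, an interaction of 1.49 ± 0.23 (adjusted p = 0.927 by edgeR). An interaction that was not called does not show that the genotypes responded equally. Across genes the set difference in wild type and in knockout correlated at Pearson's r = 0.764 (genes are not independent replicates). The sign was the same in 75.2% of genes and in 4368 of the 4369 called. The split was chosen on these libraries of both genotypes, which favours such agreement over all genes. The joint fit favours it further among the called ones, so these values are description only.

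**Figure D5:**
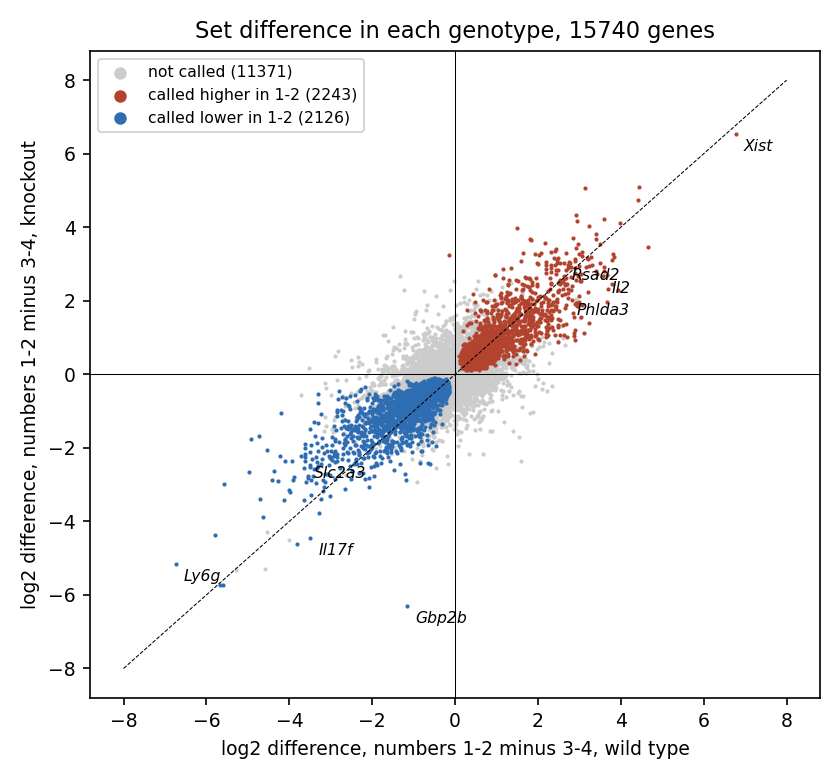
Difference in mean log2 CPM between the 1-2 and the 3-4 libraries in wild type (x axis, 2 against 2 libraries) and in the knockout (y axis, 2 against 2), one point per gene tested, coloured by the call from both genotypes together. Most coloured points lie near the dashed line of equal difference, Gbp2b lies far below it, and Xist is at the upper right.

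The sets were not the whole of the structure by number. Number 1 minus number 2 in wild type and in knockout correlated at r = 0.50 across genes, and number 3 minus number 4 at r = 0.32. The median absolute log2 difference was 0.29 between the sets, 0.22 between numbers 1 and 2 and 0.15 between numbers 3 and 4, over 4, 2 and 2 libraries a side. With the set as a term, edgeR's quasi-likelihood test called 237 genes between the genotypes (1.51% of genes tested, Benjamini-Hochberg adjusted), against 23 without it, all 23 of which were among the 237. With the replicate number as a fixed block in place of the set, 1048 were called.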

How the data were processed

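Per the file headers, the deposited table holds whole-number read counts for 49040 genes named by symbol in 8 libraries. It also holds the authors' own comparison of the genotypes, which was not used: a mean signal scaled by library, log2 fold changes, a standard error and test statistic (each a score), and p-values, all per the file headers. The submitters' processing notes name STAR 2.5.2, Subread 1.5.2 with featureCounts, DESeq2 and build GRCm38. Annotation, strand setting and multimapping are not given in the sources, so overlapping genes and near-identical copies are uncertain.

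Genes were filtered with edgeR's filterByExpr by genotype and set (15740 kept, 99.95% of counts), scaled by TMM and fitted with edgeR 4.0.16 (quasi-likelihood) in R 4.3.3, with genotype and set as terms and Benjamini-Hochberg adjustment at 0.05. CPM values carry the TMM factors, and log2 CPM a prior count of 2. A log2 difference is the 1-2 minus the 3-4 libraries with its standard error. That error is the size of the difference over the square root of its quasi-likelihood F statistic. It rests on the fit's moderated dispersion and is not a plain standard error over libraries. Differences for 1 genotype or 1 number are of mean log2 CPM. The split, the gene lists and the genes named were chosen with earlier results of these data known. Named genes are fixed T cell genes, the 12 largest called differences each way without overlap at 5 CPM or more, up to 3 called members of a list per direction and the 5 smallest interaction p-values each way (189 genes, some not reported here); other list members named in the text were chosen after their values were seen. Same-numbered libraries of the 2 genotypes correlated at 0.57 to 0.70 in their deviations from the genotype means, and 8 of 8 correlated best with their own number; the source of this pairing is the values. No 2 libraries of a genotype and set were alike within sampling noise (chi-square per degree of freedom 14.5 or more). Transcript length and GC content came from GENCODE M21 (99.14% of genes tested matched), promoters from RefSeq. Only edgeR's set term and interaction term were checked on simulated data, drawn without correlation between same-numbered libraries. The other fits were not checked in this way. Alternatives used limma-voom 3.58.1 and DESeq2 1.42.0.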

Additional observations from a re-analysis of the deposited data

Results flagged for a closer look

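Within each set of 4 libraries, the gap of the most distant library was compared with the set's range for the named genes and the library properties, and 7 of 180 groups of 4 passed Dixon's critical value, where chance passes about 1 in 20. Gbp2b stood at 810 CPM in knockout 3, and the other 3-4 libraries held 0.457 to 1.32 CPM. Cd70 was at 24.1 CPM in knockout 2 against 5.71 to 7.87 CPM in the other 1-2 libraries. Foxp3 was at 7.56 CPM in wild type 2 against 1.20 to 1.77 CPM. Among the 3-4 libraries Spib was at 0.642 CPM in knockout 4 against 0.130 to 0.195 CPM. Smaller gaps were those of Trp53inp1 in wild type 3 (78.3 CPM against 66.7 to 68.5 CPM), Irf9 in knockout 3 (48.8 CPM against 41.9 to 43.0 CPM) and mt-Co2 in wild type 4 (5.70 CPM against 5.03 to 5.12 CPM).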

How the results depend on the processing

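The split rests on 4 numbers. Leaving out number 3 or number 4 moved most counts by more than 1.5 times, and leaving out number 1 or number 2 moved fewer. The alternatives for list counts were chosen after seeing the data, and the cause of these changes was not tested. Leaving out 1 library or 1 number in turn gave 1040 (without number 3) to 4677 genes called between the sets, 4946 to 7087 without overlap, 10 (without number 3) to 20 p53 targets higher, 11 (without number 4) to 31 glycolysis and hypoxia genes lower, 2 (without number 3) to 30 (without number 2) interferon genes higher, 0 to 1 interaction calls (Gbp2b, without knockout 4) and 49 (without wild type 3) to 439 genotype calls. With same-numbered libraries summed, 2 against 2, there were 864 called genes, 10 p53 targets, 8 glycolysis and hypoxia genes, 3 interferon genes, 3 Th17 genes lower (6 unsummed) and 5 regulatory T cell genes lower (9). Wild type alone gave 115 called genes, 7 p53 targets, 1 glycolysis and hypoxia gene, 1 interferon gene and 2 NF-kB targets higher, and the knockout alone 581, 7, 5 and 4 for the first 4 of these. Without a filter on low counts there were 28 interferon genes higher, 129 interaction calls and 1567 genotype calls. DESeq2 made 886 genotype and 4 interaction calls. Pairing by a replicate block gave 3184 called genes through an estimated correlation of 0.23, and as a fixed block 0 interaction and 1048 genotype calls, against 23 with genotype as the only term; limma-voom called 6 interferon genes with the replicate block and 6 without it. RLE factors and thinned counts kept every count within 1.5 times, and NF-kB targets changed by more only in wild type alone. Of 1740 gene differences under these settings, over 83 genes, 52 moved by more than the spread within sets, and 0 called ones changed sign. Depth limits genes below about 1 CPM.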

Other observations

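Of 32 genes of ribosome biogenesis and MYC targets, 10 were called higher in the 1-2 libraries, 1, Ldha, lower and 21 neither way, and 6 lay higher with no overlap. The median log2 difference was 0.30 in wild type and 0.086 in the knockout. Srm, which encodes spermidine synthase and is a known MYC target, differed by 0.70 ± 0.11, Polr1c, a subunit shared by RNA polymerases I and III, by 0.66 ± 0.08, and Rrp9, of the U3 particle that processes ribosomal RNA, by 0.65 ± 0.09. Myc itself was not called. The noncoding host gene Snhg12 was higher at 60.6 and 66.5 CPM in wild type 1 and 2 and 74.9 and 69.5 CPM in knockout 1 and 2, against 27.2 and 28.9 CPM in wild type 3 and 4 and 37.9 and 36 CPM in knockout 3 and 4, a difference of 1.07 ± 0.08. Genes of the ATF4 and amino acid response were called higher in 9 and lower in 2 of 30. Ddit3, the stress factor CHOP, differed by 0.90 ± 0.20 and Atf4 by 0.45 ± 0.10, while Asns, asparagine synthetase and a usual ATF4 target, was not called (0.03 ± 0.33). The list's median was 0.40 for number 1 and -0.23 for number 2 against the 3-4 libraries.

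Genes of the unfolded protein response were called lower in 5 and higher in none of 21, with Xbp1, its central transcription factor, at -0.59 ± 0.09 and the chaperone gene Hsp90b1 at -0.46 ± 0.07. Of 31 genes of cholesterol and lipid synthesis 5 were lower and 1 higher, where 13.5% and 14.3% of all genes were called; the desaturase genes Scd1 (-1.77 ± 0.53) and Scd2 (-1.37 ± 0.22) were lower, and Sqle, a sterol pathway enzyme, was not called (-0.07 ± 0.08). Of 29 replication-dependent histone genes 6 were higher and none lower, all at low levels, the list summing to 79.1 to 101.5 CPM against 51.9 to 69.1 CPM. Of 18 follicular helper genes 8 were higher and 3 lower. Id3, an inhibitor of E proteins, differed by 1.25 ± 0.11, and Ascl2, a helix-loop-helix factor gene, by -3.76 ± 0.84.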
